A study of Homo sapiens with 6 samples.

Results

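PRMT1 lies on the long arm of human chromosome 19, at 19q13.33, in a dense stretch of genes, and was described here together with 9 listed genes beside it: NOSIP, PRRG2, PRR12, RRAS, SCAF1, IRF3, BCL2L12, ADM5 and CPT1C. The 10 genes were found by their current symbols among the 57500 Ensembl identifiers of the deposited table. PolyA-selected RNA was sequenced from HEK293T, a widely used cell line of human embryonic kidney origin that carries the SV40 large T antigen, in 2 groups of 3 libraries. The control group is labelled as vector control, genotype WT, and its libraries are titled Mock. The other group is labelled as PRMT1 overexpression, genotype PRMT1 OV: cells were transfected by PolyJet with pcDNA3, a mammalian expression plasmid, holding PRMT1 as its insert. Both groups share the cell line and its growth medium. The labels give neither the time from transfection to harvest nor whether control cells received the plasmid without an insert. They also do not say that replicates are separate cultures, and p-values then cover only library-to-library spread, possibly of technical origin.

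PRMT1 transfers methyl groups from S-adenosylmethionine to arginine side chains and is the main source of asymmetric dimethylarginine in mammalian cells. Its substrates include histone H4 and many RNA-binding proteins. A gene carried on a plasmid is transcribed from the plasmid's own promoter, and its reads map to the chromosomal gene of the same sequence. The genes next to PRMT1 are not on such a plasmid, and are transcribed from the chromosome. The comparison asks how far the difference at PRMT1 is met at the genes around it. Values per gene average over all cells of a culture, so a change in the number of cells that express a gene and a change in RNA per cell cannot be told apart.

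Values are TPM (transcripts per 1000000), which divide reads by gene length and scale each library to a total of 1000000. A gene that takes a large share therefore lowers the TPM of all others. For this reason each neighbour is given both in TPM as deposited and after PRMT1 was taken out and the other genes were rescaled to the same total. Log2 fold changes are on the scale of log2(TPM + 1), which understates the change of genes near 1 TPM. They come from limma, fitted to the 15341 genes that reached 1 TPM in 3 or more of the 6 libraries, and a gene passed at a Benjamini-Hochberg adjusted p under 0.05. All 10 genes entered that fit. A gene under 1 TPM in the controls was tested only where the PRMT1 libraries were higher, and so could hardly be called lower. Reads recovered from the TPM values numbered 18196117 to 23162699 per library. The groups lay apart on the first principal component, with 69.2% of the variance, and vector control library 3 and PRMT1 library 2 lay farthest from the others of their groups (-47.8 against -36.0 and -35.6, and 50.2 against 35.3 and 33.9 on that component). Of 10 markers listed for HEK293T, 9 averaged 1 TPM or more (not PAX8), and the list summed to 1557 to 1681 TPM in the controls and 1093 to 1240 TPM in the PRMT1 libraries. The 3 fibroblast markers, of which COL1A1 alone averaged 1 TPM or more, summed to 12.3 to 17.1 TPM and to 9.34 to 10.8 TPM. The 4 leukocyte markers summed to 1.91 to 2.80 TPM and to 2.40 to 3.26 TPM. The 3 endothelial markers reached at most 0.20 TPM and the 3 liver markers at most 0.87 TPM, with 1 leukocyte and 1 liver marker listed at 0. The part of these differences in the results was not tested.

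The start regions of 4 members are shown because PRMT1 is the gene that was introduced, SCAF1 and PRR12 are the neighbours with at least 5 TPM that changed most, and BCL2L12 and IRF3 face away from a shared start region. The sequences are RefSeq windows of 300 bases on GRCh38.p14, from 250 bases before to 50 after a start, all read on the plus strand. The RefSeq starts in all 4 windows differ from the 5′ ends of the GENCODE genes. Capitals mark the GC box GGGCGG, searched on both strands with overlapping matches kept.
PRMT1 (chr19:49677021-49677320): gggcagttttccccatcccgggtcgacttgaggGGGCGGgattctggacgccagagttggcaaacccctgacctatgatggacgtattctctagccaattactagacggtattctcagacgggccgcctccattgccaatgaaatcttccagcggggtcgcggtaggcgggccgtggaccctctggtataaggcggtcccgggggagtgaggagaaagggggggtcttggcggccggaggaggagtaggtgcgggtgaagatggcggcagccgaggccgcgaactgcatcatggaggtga
SCAF1 (chr19:49641959-49642258): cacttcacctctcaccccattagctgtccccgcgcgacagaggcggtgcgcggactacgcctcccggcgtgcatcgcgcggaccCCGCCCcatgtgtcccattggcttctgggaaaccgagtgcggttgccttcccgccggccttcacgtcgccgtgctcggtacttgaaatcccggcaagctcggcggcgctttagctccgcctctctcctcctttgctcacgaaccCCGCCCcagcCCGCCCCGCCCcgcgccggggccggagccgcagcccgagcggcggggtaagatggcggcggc
PRR12 (chr19:49590932-49591231): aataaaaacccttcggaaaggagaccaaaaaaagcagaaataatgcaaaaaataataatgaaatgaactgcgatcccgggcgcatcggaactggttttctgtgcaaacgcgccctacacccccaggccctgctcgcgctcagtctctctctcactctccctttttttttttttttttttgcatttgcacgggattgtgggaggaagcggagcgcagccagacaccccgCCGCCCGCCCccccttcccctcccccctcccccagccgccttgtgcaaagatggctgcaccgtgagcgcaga
BCL2L12, second start (chr19:49665683-49665982): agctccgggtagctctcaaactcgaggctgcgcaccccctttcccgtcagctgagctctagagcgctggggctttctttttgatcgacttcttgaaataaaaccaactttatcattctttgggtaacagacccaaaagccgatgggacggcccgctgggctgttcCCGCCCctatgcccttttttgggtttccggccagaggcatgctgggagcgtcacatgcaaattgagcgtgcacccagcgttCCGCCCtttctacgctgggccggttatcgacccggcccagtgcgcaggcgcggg
The GC box occurred 1 time in the PRMT1 window, 4 times in the SCAF1 window, 2 times in the PRR12 window and 2 times in the BCL2L12 window, and 44.95% of all 35116 such windows held it. The SCAF1 window held 71.3% G and C and 40 CpG steps, the PRMT1 window 62.0% and 22, and the PRR12 window 54.3% and 18. The CCAAT box (CCAAT, both strands) occurred 2 times in the PRMT1 window and 1 time in the SCAF1 window, and 34.61% of all windows held it. No TATAAA was found on either strand in these 4 windows, against 11.53% of all windows. The annotated 5′ end of IRF3, at 49665875 on the minus strand, lies inside the BCL2L12 window shown.

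PRMT1 was the gene with the highest log2 fold change of all those tested. PRMT1 carries the identifier ENSG00000126457 and runs from 49675786 to 49689029 on the plus strand of chromosome 19; all gene positions are those of GENCODE 29 on GRCh38. It measured 378, 397 and 368 TPM under vector control and 71660, 62890 and 84920 TPM under PRMT1 overexpression. All PRMT1 libraries lay far above all controls, which checks the labels. The means were 381 ± 14.7 and 73160 ± 11090 TPM (SD, n = 3 each), 192-fold apart, or 7.57 on the log2 scale (SE 0.10, adjusted p = 5.5e-08 by limma). The exact two-sided permutation test of 3 against 3 gave p = 0.1, the smallest it allows. PRMT1 made up 0.037 to 0.040% of the TPM of a control library and 6.29 to 8.49% of that of a PRMT1 library.

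The 3 short annotated genes in or against the locus were listed at 0. MIR5088, a microRNA gene inside PRMT1 (49682117 to 49682195), had no value above 0 in any of the 6 libraries. The antisense gene AC011495.3 (49688853 to 49690573, minus strand), which lies across the end of PRMT1 and the whole of ADM5 but for its ends, and AC011495.2 (49625994 to 49626439), against the end of PRR12, were also listed at 0 throughout. The strand setting of the counting is unknown, which limits what a value of 0 says about an antisense gene.

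A copy of PRMT1 on another chromosome gained reads. PRMT1P1, a processed pseudogene on chromosome 5 (177265580 to 177266588, minus strand), had no read in the 3 controls and held 53, 48 and 44 reads in the PRMT1 libraries. That is 7.69 ± 0.33 TPM (SD, n = 3), at least 15.6-fold higher when the floor of each control library is set to 3 reads. Aligned to the 1116 coding bases of the transcript PRMT1-202, which encodes 371 residues, the pseudogene was identical at 897 of 1027 aligned columns (87.34%), with a longest identical run of 55 bases. The 90-base stretches where the copies are most and least alike are shown, positions counted from the start codon for PRMT1 and from the transcript's 5′ end for PRMT1P1, with differing bases in capitals, because they show how closely a read of one can match the other.
PRMT1 coding bases 924 to 1013: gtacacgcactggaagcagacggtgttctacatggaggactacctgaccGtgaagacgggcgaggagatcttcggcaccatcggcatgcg
PRMT1P1 bases 830 to 919: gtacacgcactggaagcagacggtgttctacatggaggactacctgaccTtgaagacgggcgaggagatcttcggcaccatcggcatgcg
PRMT1 coding bases 229 to 318: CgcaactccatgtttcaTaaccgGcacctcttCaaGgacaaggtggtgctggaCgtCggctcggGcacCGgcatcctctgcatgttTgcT
PRMT1P1 bases 127 to 216: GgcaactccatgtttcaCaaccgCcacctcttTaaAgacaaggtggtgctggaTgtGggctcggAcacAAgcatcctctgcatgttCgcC
The first stretch holds 1 difference in 90 bases and the second 12. PRMT1P1 reads amounted to 18.9 to 24.7 per 1000000 PRMT1 reads in the PRMT1 libraries, and the controls held 10343 to 11345 PRMT1 reads each. Of all other genes, only NSD1, in which PRMT1P1 lies, also had a transcript sharing an identical run of at least 50 bases with that coding sequence. None of the 9 neighbours on chromosome 19 did so, but only the coding sequence was searched, and ADM5 shares 366 exonic bases with PRMT1. The source of the PRMT1P1 reads was not tested.

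**Figure D1:**
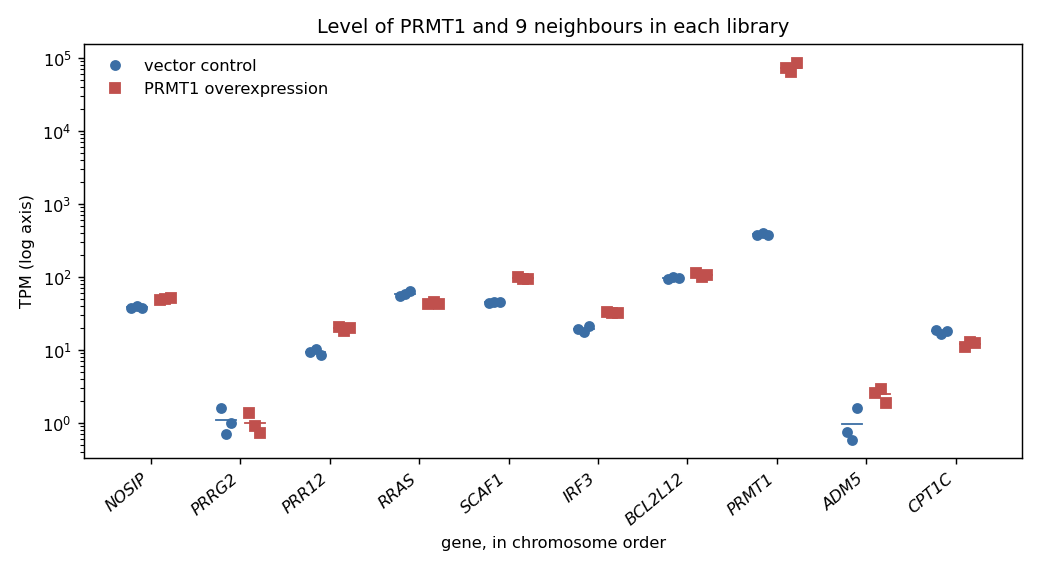
TPM of PRMT1 and its 9 neighbours in chromosome order, on a log axis; circles are the 3 vector control libraries, squares the 3 PRMT1 libraries and short lines the group means. PRMT1 moves from 381 to 73160 TPM, while the largest ratio of means among the neighbours is 2.504, for ADM5.

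The neighbours differed far less than PRMT1, and not in 1 direction. Of the 9 genes, 5 rose (SCAF1, PRR12, IRF3, ADM5 and NOSIP), 2 fell (RRAS and CPT1C), and BCL2L12 and PRRG2 did not pass. Among all tested genes 40.3% were higher and 8.64% lower in this fit, 49.0% together. The largest ratio of means among neighbours was 2.504 for ADM5, near 1 TPM, and 2.13 for SCAF1. The summed TPM of the 9 genes was 276, 287 and 293 in the controls and 369, 353 and 358 in the PRMT1 libraries, a ratio of 1.26. After rescaling without PRMT1 the ratio was 1.36, 6 neighbours rose and the same RRAS and CPT1C fell, where 49.1% of all genes were higher and 5.68% lower. Under median-of-ratios scaling, where 22.5% of all genes were higher and 25.5% lower, 4 of the 10 genes rose (PRMT1, SCAF1, PRR12 and IRF3) and the same 2 fell. The values of the groups did not overlap for 7 of the 9 neighbours in TPM as deposited and for 8 after rescaling, against 61.4% and 64.7% of all tested genes. Their median log2 fold change was 0.37, that of all tested genes 0.30.

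SCAF1 and PRR12, both on the plus strand on the 5′ side of PRMT1, rose by a factor of 2.13 and 2.11. SCAF1 (49642125 to 49658642), whose product binds the tail of RNA polymerase II and carries a serine- and arginine-rich stretch, measured 43.6, 44.8 and 45.4 TPM under vector control and 98.7, 93.8 and 92.5 TPM under PRMT1. The groups stood well apart, with little spread in either. SCAF1 rose by 1.07 on the log2 scale (SE 0.07, limma adjusted p = 7.52e-05), and 1.18 after rescaling. PRR12 (49591643 to 49626439), a proline-rich nuclear protein gene, measured 9.19, 10.2 and 8.40 TPM under vector control. The PRMT1 libraries gave 20.4, 18.2 and 20.02 TPM, all above the highest control. PRR12 rose by 1.00 on the log2 scale (SE 0.11, limma adjusted p = 0.000368), and 1.11 after rescaling. On the median-of-ratios scale, which moves the median of all genes to -0.01, both rises were smaller, at 0.70 and 0.65. The PRR12 rise was 0.61 under quantile normalization.

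IRF3 and BCL2L12 lie head to head and share 734 exonic bases on opposite strands, and in TPM as deposited only IRF3 passed; the difference between the genes was not tested. IRF3 (49659569 to 49665875, minus strand) encodes the transcription factor that is phosphorylated by TBK1 after nucleic acid sensing and turns on the interferon beta gene. Its controls gave 19.1, 17.6 and 20.8 TPM and its PRMT1 libraries 32.7, 31.8 and 31.97 TPM, without overlap. IRF3 rose by 0.72 on the log2 scale (SE 0.09, limma adjusted p = 0.000707), and 0.83 after rescaling. It was 0.36 under median-of-ratios scaling (adjusted p = 0.0377) and 0.41 under quantile normalization (adjusted p = 0.0253). BCL2L12 (49665142 to 49673916, plus strand), an atypical member of the BCL2 family of apoptosis regulators, ends 1869 bases before PRMT1 begins. Controls gave 91.7, 99.6 and 95.8 TPM and PRMT1 libraries 112, 98.1 and 105 TPM, and PRMT1 library 2 lay within the range of the controls. Its log2 fold change of 0.13 did not pass (SE 0.08, limma adjusted p = 0.183), with a 95% interval from -0.04 to 0.31. After rescaling it rose by 0.24 (adjusted p = 0.0305), and under median-of-ratios scaling it was at -0.25 (adjusted p = 0.0989). Without a stated strand setting, reads in the shared exonic bases, 33.12% of the BCL2L12 exons, cannot be assigned with certainty.

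ADM5 and CPT1C, the next genes on the 3′ side of PRMT1 and on its strand, moved in opposite directions. ADM5 (49688664 to 49690575) is annotated as a putative member of the adrenomedullin family of peptide hormone genes. Its first 366 exonic bases, 21.3% of its exonic length, are also exonic in PRMT1. ADM5 measured 0.74, 0.59 and 1.59 TPM under vector control and 2.58, 2.89 and 1.84 TPM under PRMT1, from 8, 6 and 16 reads and from 29, 32 and 18 reads. Control library 3 came close to PRMT1 library 3, and was the only control to reach 1 TPM. ADM5 thus passed the filter through the PRMT1 libraries. ADM5 rose by 0.82 on the log2 scale (SE 0.23, limma adjusted p = 0.0213), and 0.90 after rescaling. The call was lost under median-of-ratios scaling (0.59, adjusted p = 0.0821), under quantile normalization (0.41, adjusted p = 0.185), without the filter (adjusted p = 0.0631) and without vector control library 1 or 2 or PRMT1 library 1 or 2 (adjusted p = 0.0654, 0.0642, 0.0625 and 0.0699). Over 3 libraries PRMT1 went from 33029 to 6514455 reads, and ADM5 from 30 to 79. The part of reads from PRMT1 in the ADM5 value was not tested.

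CPT1C (49690898 to 49713731), the brain-type member of the carnitine palmitoyltransferase family, starts 1868 bases after PRMT1 ends. Controls gave 18.4, 16.7 and 18.3 TPM and PRMT1 libraries 10.9, 12.9 and 12.2 TPM. All PRMT1 libraries were below all controls. CPT1C fell by 0.54 on the log2 scale (SE 0.10, limma adjusted p = 0.00386) and by 0.43 after rescaling. It fell by 0.89 under median-of-ratios scaling and by 0.92 under quantile normalization.

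RRAS, between PRR12 and SCAF1, fell while both of those rose. RRAS (49635292 to 49640201, minus strand) encodes a small GTPase of the RAS family that acts on integrin-based adhesion. Controls gave 54.5, 57.0 and 64.1 TPM and PRMT1 libraries 42.3, 45.1 and 42.8 TPM, with no overlap. RRAS fell by 0.42 on the log2 scale (SE 0.09, limma adjusted p = 0.00537), by 0.31 after rescaling and by 0.80 under median-of-ratios scaling.

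NOSIP and PRRG2, the farthest of the listed genes, end 85523 and 84770 bases before the PRMT1 start. NOSIP (49555711 to 49590262, minus strand) encodes a ubiquitin ligase that binds endothelial nitric oxide synthase. Its controls gave 37.2, 39.4 and 37.5 TPM and its PRMT1 libraries 48.0, 49.2 and 51.0 TPM, so the groups did not overlap. NOSIP rose by 0.37 on the log2 scale (SE 0.07, limma adjusted p = 0.00476), close to the median of all genes, and 0.48 after rescaling. It was -0.004 under median-of-ratios scaling (adjusted p = 0.975) and 0.17 under quantile normalization (adjusted p = 0.124). PRRG2 (49580646 to 49591015, plus strand), a gene of a membrane protein with a vitamin K-dependent Gla domain, begins inside the NOSIP gene but shares no exonic base with it. Controls gave 1.60, 0.69 and 1.00 TPM and PRMT1 libraries 1.35, 0.91 and 0.72 TPM, from 7 to 17 reads each. The groups overlapped, and PRRG2 did not pass at -0.06 on the log2 scale (SE 0.22, limma adjusted p = 0.836, 95% interval -0.58 to 0.46).

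**Figure D2:**
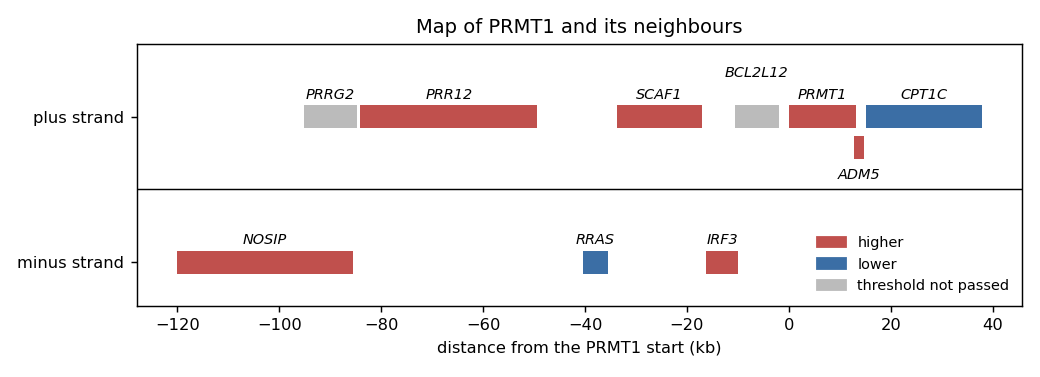
Position of the 10 genes relative to the PRMT1 start, in kb, plus strand above and minus strand below (ADM5 is drawn lower to show its overlap); colour gives the limma call in TPM as deposited. The 2 lower genes lie among higher ones: RRAS lies between PRR12 and SCAF1, and CPT1C follows PRMT1 and ADM5.

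**Figure D3:**
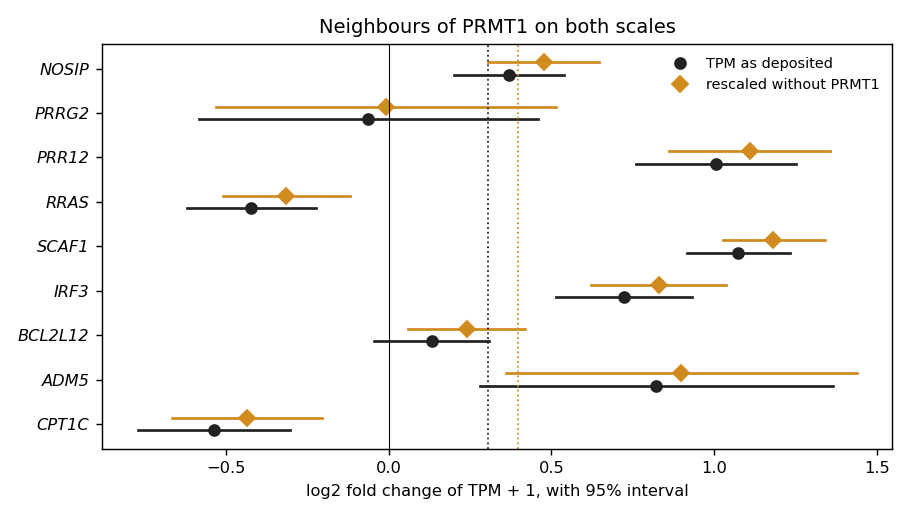
Log2 fold change of each neighbour with its 95% interval, in TPM as deposited (circles) and rescaled without PRMT1 (diamonds); dotted lines are the medians of all tested genes, 0.30 and 0.40. Rescaling shifts every neighbour upward, and only BCL2L12 then newly passes.

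The level of PRMT1 differed between the PRMT1 libraries, and the neighbours did not all follow it. PRMT1 library 3 had the highest PRMT1 level and library 2 the lowest. After rescaling, SCAF1 was at 106, 100.1 and 101.0 TPM in libraries 1, 2 and 3, and IRF3 at 35.2, 34.0 and 34.9 TPM. ADM5, at 2.78, 3.08 and 2.01 TPM, was lowest in the library with the most PRMT1. NOSIP was highest there, at 51.7, 52.5 and 55.7 TPM. CPT1C was at 11.7, 13.7 and 13.3 TPM and BCL2L12 at 120.3, 104.7 and 115.1 TPM. With 3 libraries these orders have no test.

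SCAF1, NOSIP, PRR12 and ADM5 each stood 1 place higher in the PRMT1 libraries than in the controls in the order of the members by mean TPM, which is a value per length. In the controls PRMT1 was highest at 381 TPM, followed by BCL2L12 (95.7), RRAS (58.6), SCAF1 (44.6), NOSIP (38.1), IRF3 (19.1), CPT1C (17.8), PRR12 (9.26), PRRG2 (1.10) and ADM5 (0.97). IRF3 and CPT1C overlapped in this order, as did PRRG2 and ADM5. In the PRMT1 libraries PRMT1 (73160) was followed by BCL2L12 (105), SCAF1 (94.98), NOSIP (49.4), RRAS (43.4), IRF3 (32.2), PRR12 (19.6), CPT1C (11.97), ADM5 (2.44) and PRRG2 (0.99). There only BCL2L12 and SCAF1 overlapped among neighbours in the order.

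The stretch around the listed genes was examined by position alone. The 75 genes in the table that start within 500 kb of PRMT1 include the 10 listed genes. Of the 75, 41 were tested, and 16 rose and 11 fell. That is 39.0% higher and 26.8% lower, where chromosome 19 as a whole, with 1024 tested genes, had 34.0% and 19.6%, and all tested genes 40.3% and 8.64%. The log2 fold change had a median of 0.13 in the window, 0.15 on chromosome 19 and 0.30 over all genes. Without the 10 listed genes the window held 31 tested genes, of which 10 rose and 9 fell, with a median of 0.07. The other window values given here include the listed genes unless stated. Leaving out PRMT1, the median size of the log2 change, regardless of sign, was 0.41 in the window, 0.38 on chromosome 19 and 0.40 over all genes. After rescaling without PRMT1 the window held 18 higher and 8 lower genes, where 49.1% of all genes were higher and 5.68% lower. Under median-of-ratios scaling it held 10 higher and 14 lower, where 22.5% of all genes were higher and 25.5% lower. Under quantile normalization it held 11 higher and 12 lower, against 3109 higher and 2979 lower of 15341 genes. On the 5′ side 7 of 20 tested genes rose and 6 fell, and on the 3′ side 8 of 20 rose and 5 fell.

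Genes with larger and smaller log2 fold changes were found at all distances from PRMT1. Within 20 kb, the 4 nearest genes by start were at 0.72 (IRF3), 0.13 (BCL2L12), 0.82 (ADM5) and -0.54 (CPT1C). The unlisted genes of the window with at least 5 TPM all start farther away, the nearest being AP2A1 at 91.2 kb. Their 2 highest and 2 lowest log2 fold changes are given here, and by that choice could not lie within 20 kb. ZNF473, a zinc finger gene whose product takes part in histone mRNA 3′ end processing, starts 349.9 kb from PRMT1. It went from 2.18 ± 0.44 up to 9.46 ± 1.34 TPM (SD, n = 3 each), or by 1.72 on the log2 scale (limma adjusted p = 0.000222). NUP62, a central channel nucleoporin gene 254.0 kb away, rose from 26.0 ± 1.49 to 66.8 ± 1.07 TPM, or by 1.33 (adjusted p = 6.99e-05). RCN3, a calcium-binding protein gene of the secretory pathway at -148.2 kb, on the 5′ side, fell from 16.8 ± 0.69 to 9.70 ± 2.11 TPM, or by 0.75 (adjusted p = 0.00478). AP2A1, a clathrin adaptor subunit gene 91.2 kb away, fell from 65.3 ± 7.41 to 46.3 ± 1.69 TPM, or by 0.48 (adjusted p = 0.00558). These 4 kept their direction and their call under median-of-ratios scaling, quantile normalization and GC correction.

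**Figure D4:**
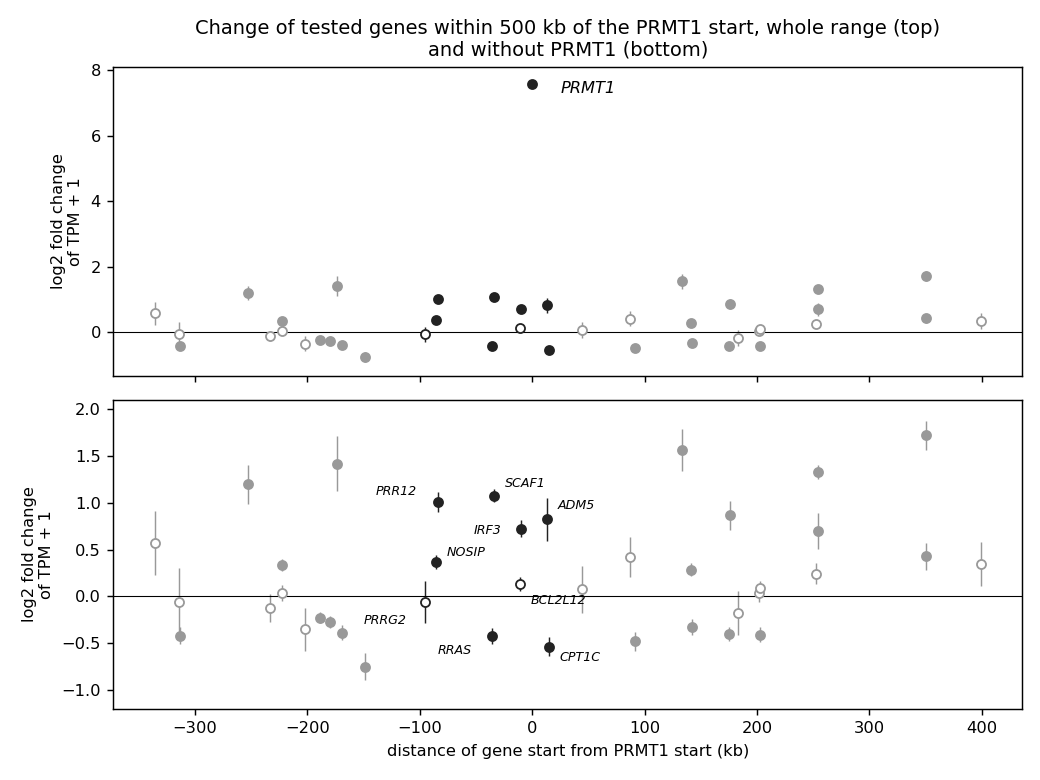
Log2 fold change (points, with SE bars) of the 41 tested genes that start within 500 kb of PRMT1, by distance in kb; black marks the 10 listed genes, grey the others, and filled symbols passed the threshold. PRMT1 stands alone at 7.57 in the upper panel, and the others, enlarged below, lie between -0.75 and 1.72 at all distances.

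The GC content of the genes moved with the groups, and its part in the members' values was tested only by the correction given here. Ranked by GC content and split into 10 equal sets, the tested genes of the highest set had a median log2 fold change of 0.04; SCAF1 (68.5%), PRR12 (66.3%), ADM5 (63.6%) and RRAS (63.5%) belong to it. The median was 0.14 in the next lower set, with BCL2L12, IRF3 and PRRG2, and 0.21 in the one below that, with PRMT1, CPT1C and NOSIP. With the GC trend of each library removed, SCAF1 was at 1.10, PRR12 at 0.98, IRF3 at 0.55, NOSIP at 0.17, RRAS at -0.50 and CPT1C at -0.73, all past the threshold, and BCL2L12 at -0.04 was not (adjusted p = 0.631).

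Genes that work with the members elsewhere in the genome were counted from lists, with the counts after median-of-ratios scaling as the second set. Of 20 genes of the IRF3 pathway 12 were tested, and 8 rose and 0 fell (4 and 1 after scaling), with a median log2 fold change of 0.59. Of all tested genes 40.3% were higher and 8.64% lower (22.5% and 25.5% after scaling), with a median of 0.30. TBK1, the kinase of IRF3, rose by 0.97 on the log2 scale, with means of 4.64 ± 0.34 and 10.3 ± 2.85 TPM (SD, n = 3 each, limma adjusted p = 0.00371). The RNA sensor gene RIGI rose by 0.86 on the log2 scale, a call lost under quantile normalization (adjusted p = 0.0574) and GC correction (adjusted p = 0.0565). The interferon-induced IFIT1 rose by 0.92, from 0.55 ± 0.17 to 1.94 ± 0.20 TPM. IFIT1, RIGI and IFIH1, all among the 8 higher genes, averaged under 1 TPM in the controls. They needed PRMT1 libraries at 1 TPM or more to be tested at all, and so could hardly be counted as lower. IFNB1, the interferon beta gene that IRF3 turns on, was listed at 0 in all 6 libraries, as was OAS1, and CGAS was at 0.01 TPM in both groups.

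For SCAF1, the list held its relatives, other binders of the polymerase tail, and POLR2A, a gene of the polymerase itself. Of its 9 tested genes 7 rose and 1 fell (5 and 1 after scaling), with a median of 0.67. Over all genes 40.3% rose and 8.64% fell (22.5% and 25.5% after scaling). RPRD2 rose by 2.01, with means of 4.03 ± 0.34 and 19.3 ± 2.08 TPM (SD, n = 3 each, limma adjusted p = 6.99e-05). RPRD1B rose by 1.20 and PHRF1 by 0.64, PHRF1 not after median-of-ratios scaling (adjusted p = 0.0718) or quantile normalization (adjusted p = 0.183). The family members SCAF4 and SCAF8 rose by 0.61 and 1.17. PCF11, a cleavage factor gene, fell by 0.34 (adjusted p = 0.0487), and did not pass after rescaling (adjusted p = 0.109). It fell by 0.65 under median-of-ratios scaling, 0.80 under quantile normalization and 0.76 under GC correction (adjusted p = 0.00383, 0.00205 and 0.00229).

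For RRAS, 6 of 13 tested RAS family genes and partners rose and 0 fell (2 and 2 after scaling), a share of higher genes near the 40.3% of all genes (22.5% higher and 25.5% lower after scaling). RAP1B and PLXNB1, the latter the gene of a semaphorin receptor, rose by 0.95 and 0.71 on the log2 scale, PLXNB1 not under quantile normalization (adjusted p = 0.102). RIN2 rose by 0.66, a call lost after median-of-ratios scaling (adjusted p = 0.0601), quantile normalization (adjusted p = 0.263) and GC correction (adjusted p = 0.143). RIN2 averaged 0.74 TPM in the controls and passed the filter only through the PRMT1 libraries. The nearest relatives of RRAS, RRAS2 and MRAS, rose by 0.32 and 0.34, but were at -0.05 and -0.01 after median-of-ratios scaling, and neither passed under quantile normalization (adjusted p = 0.293 and 0.353). Under GC correction RRAS2 passed in the other direction, at -0.20 (adjusted p = 0.047), and MRAS was at 0.02 (adjusted p = 0.859).

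For CPT1C, the list held genes of the carnitine shuttle and also ACACA, ACACB and MLYCD, which are not part of it. Of its 9 tested genes 3 rose and 0 fell (2 and 3 after scaling). Over all genes 40.3% rose and 8.64% fell (22.5% and 25.5% after scaling). CPT2, the inner membrane enzyme, rose by 1.34, with means of 2.09 ± 0.41 and 6.79 ± 0.50 TPM (SD, n = 3 each, limma adjusted p = 0.000405). The carrier gene SLC25A20 rose by 0.45, a call lost under median-of-ratios scaling (adjusted p = 0.455), quantile normalization (adjusted p = 0.342) and GC correction (adjusted p = 0.144). MLYCD rose by 0.75, with means of 0.32 and 1.22 TPM, and not under quantile normalization (adjusted p = 0.301). MLYCD passed the filter only through the PRMT1 libraries. CPT1A, the liver-type relative of CPT1C, was at 31.9 ± 2.72 and 27.1 ± 2.88 TPM and did not pass at -0.23 (adjusted p = 0.114), but fell by 0.60, 0.51 and 0.54 under median-of-ratios scaling, quantile normalization and GC correction (adjusted p = 0.00163, 0.00454 and 0.00155).

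The lists for the other members are to be read against 40.3% higher and 8.64% lower over all genes, and 22.5% and 25.5% after scaling. Of 15 tested genes of the BCL2 family 2 rose and 0 fell (0 and 5 after scaling): BCL2L13 was at 0.42 and BMF at 0.56, and neither passed after median-of-ratios scaling (adjusted p = 0.614 and 0.104) or GC correction (adjusted p = 0.313 and 0.0659), nor did BMF under quantile normalization (adjusted p = 0.513). Of 7 tested genes around nitric oxide synthase 3 rose and 1 fell (1 and 2 after scaling), with DDAH2 at -0.51 and GUCY1B1 at 0.69, the latter not under quantile normalization (adjusted p = 0.0714) or GC correction (adjusted p = 0.0547). NOS3, the synthase that NOSIP binds, was at 0.32 ± 0.08 and 0.30 ± 0.18 TPM (SD, n = 3 each) and was not tested. Of 4 tested adrenomedullin genes 1 rose and 2 fell (1 and 3 after scaling): ADM2 rose by 1.23 from 0.33 TPM, while ADM and RAMP2 fell by 0.45 and 0.49, RAMP2 not after rescaling (adjusted p = 0.0827). ADM2, like GUCY1A1 among the higher genes around nitric oxide synthase, averaged under 1 TPM in the controls. Both passed the filter only through the PRMT1 libraries. RAMP2 fell by 0.85 under median-of-ratios scaling and quantile normalization alike and by 0.69 under GC correction (adjusted p = 0.00751, 0.0103 and 0.0136). The list for PRRG2 held genes of its family and of the vitamin K cycle, and YAP1, which belongs to neither. Of its 6 tested genes 3 rose and 1 fell (1 and 2 after scaling). PRRG1 was at 1.05, VKORC1 at -0.53 and VKORC1L1 at 0.43. VKORC1L1 did not pass the threshold under median-of-ratios scaling, quantile normalization or GC correction (adjusted p = 0.575, 0.354 and 0.824). The list for PRMT1 held other arginine methyltransferases besides partners such as BTG1 and BTG2. Of its 10 tested genes 7 rose and 0 fell (6 and 1 after scaling). The methyltransferase genes PRMT6, PRMT7 and PRMT9 rose most clearly, at 1.70, 1.54 and 1.30.

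The 5 genes whose pattern over the 6 libraries was most like that of PRMT1 all lay outside the stretch of 1000 kb on either side of it. That stretch holds only 73 of all 15341 tested genes, so their position says little about the neighbours. Among 9624 tested protein-coding genes that averaged 5 TPM or more in either group, Pearson's r of log2(TPM + 1) with PRMT1 was highest for MRTFA on chromosome 22 (0.9998). It was followed by AKAP8L on chromosome 19 (0.9996), ZNF79 on chromosome 9 (0.9995), GPATCH4 on chromosome 1 (0.9995) and MARK2 on chromosome 11 (0.9994). MRTFA went from 6.55 ± 0.14 to 16.8 ± 0.52 TPM (SD, n = 3 each) and AKAP8L from 41.8 ± 0.45 to 78.2 ± 1.13 TPM. Among the neighbours r was 0.997 for SCAF1, 0.988 for PRR12, 0.985 for NOSIP, 0.981 for IRF3, 0.836 for ADM5, 0.733 for BCL2L12, -0.149 for PRRG2, -0.947 for RRAS and -0.962 for CPT1C. These values describe 6 libraries in 2 groups and have no test.

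**Figure D5:**
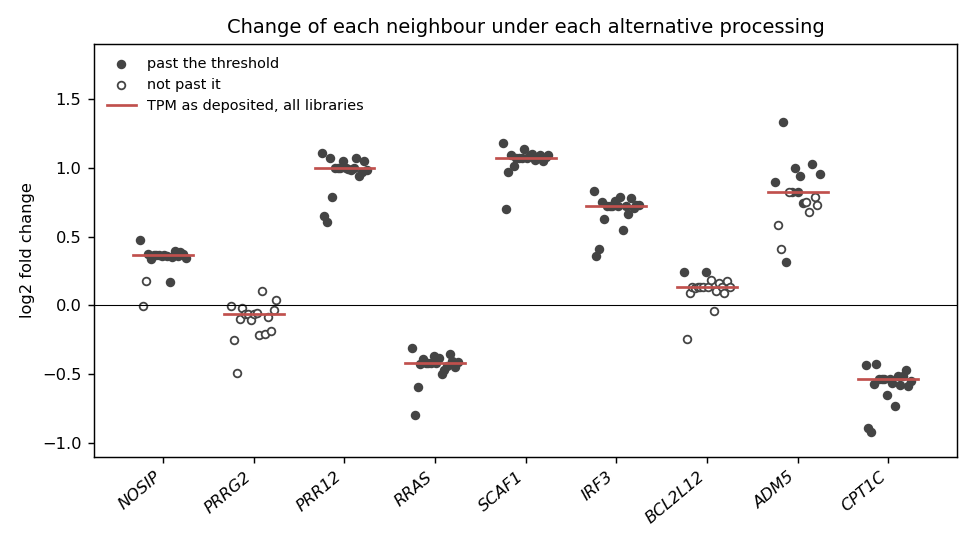
Log2 fold change of each neighbour under each alternative processing (filled symbols past the threshold, open symbols not), with the value in TPM as deposited as a line. SCAF1, PRR12, IRF3, RRAS and CPT1C stay on their side of 0 and past the threshold throughout, while BCL2L12, NOSIP and PRRG2 have values on both sides of 0.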

How the data were processed

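RNA of 6 HEK293T libraries was analysed from the table the authors deposited, which gives TPM per Ensembl gene and sums to 1000000 per library. GRCh38 is the build in the submitters' processing notes, which also list STAR 2.5.2b, Subread 1.5.2 with featureCounts, and Trimmomatic 0.36. Annotation, strand setting and TPM calculation were not given in the sources used here. Columns were matched to samples by title. Symbols came from a table of gene names, and positions, exons and transcripts from GENCODE 29 on GRCh38, which may differ from the authors' annotation and held 56898 of 57500 identifiers.

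TPM keeps no depth, but TPM times exonic length came in steps that gave whole reads (within 0.05 of a read) for 95.5 to 95.9% of the values below 50 reads, where chance gives 10%. Reads and the floor of 3 reads cover counting error only. Libraries of a group differed by more than sampling noise (chi-square per degree of freedom 2.70 to 23.2), so none was taken for a duplicate.

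Groups were compared with limma 3.58.1 in R 4.3.3 (lmFit, eBayes with trend, log2(TPM + 1), no covariate). Genes that reached 1 TPM in 3 or more libraries were tested, and p-values were adjusted over all of them by the Benjamini-Hochberg method. Named are the 10 members, PRMT1P1, the 2 highest and 2 lowest other genes of the 500 kb window with at least 5 TPM, up to 3 called genes with the smallest p per list, and the 5 genes most correlated with PRMT1. CGAS, CPT1A, IFNB1, MRAS, NOS3, OAS1, PCF11, RRAS2, SCAF4 and SCAF8 were added after their values were seen. Some results that the rule names are not reported here. The members and lists were chosen with earlier results of these data known.

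Alternatives were rescaling without PRMT1 (15483 genes tested), median-of-ratios scaling, quantile normalization, pseudocounts of 0.1 and 5 TPM, no filter or one at 5 TPM, a block for the replicate number, array weights, a fit without the variance trend, leaving out each library, and windows of 250 and 1000 kb. Leaving out the 2 libraries that stand apart and a lowess correction for transcript GC content (span 0.3) were added after seeing the data.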

Additional observations from a re-analysis of the deposited data

How the results depend on the processing

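The calls and directions of SCAF1, PRR12, IRF3, RRAS and CPT1C held under all 18 alternatives, and that of PRMT1 under the 17 that include it. With each library left out in turn, the log2 fold change ranged from 7.46 to 7.68 for PRMT1, 1.05 to 1.09 for SCAF1, 0.94 to 1.07 for PRR12, 0.67 to 0.78 for IRF3, 0.35 to 0.39 for NOSIP, 0.68 to 1.03 for ADM5, 0.09 to 0.18 for BCL2L12, -0.21 to 0.10 for PRRG2, -0.47 to -0.36 for RRAS and -0.59 to -0.47 for CPT1C. PRRG2 was on the other side of 0 without vector control library 1 (0.10) and without PRMT1 library 3 (0.04). BCL2L12 passed after rescaling without PRMT1 (0.24) and with array weights (0.24), and was below 0 under median-of-ratios scaling (-0.25) and GC correction (-0.0423). NOSIP missed the threshold under median-of-ratios scaling (-0.00396) and quantile normalization (0.17). ADM5 missed it under median-of-ratios scaling (0.59), quantile normalization (0.41) and without the filter (0.82), where 30385 genes are tested, and at 6 to 32 reads per library it is limited by depth, as is PRRG2. The cause of these changes was not tested.

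Of the members 6 rose and 2 fell, PRMT1 included. The counts were 5 to 6 and 2 with each library left out, 4 and 2 under median-of-ratios scaling and quantile normalization, and 6 and 2 without the 2 libraries that stand apart. The window counts were 13 to 16 higher and 9 to 11 lower with each library left out. They were 10 higher and 14 lower under median-of-ratios scaling, 11 and 12 under quantile normalization, 10 and 11 with the filter at 5 TPM, and 22 and 18 in a window of 1000 kb, where 73 genes are tested instead of 41. Over all genes 6190 rose and 1325 fell, with 5082 to 5634 and 935 to 1520 when each library was left out. The counts were 3448 and 3913 under median-of-ratios scaling, 3109 and 2979 under quantile normalization, and 3613 and 3878 after GC correction. Lower genes numbered 880 after rescaling without PRMT1, 2838 with array weights and 2115 without the 2 libraries that stand apart. The replicate number as a block gave 6275 higher and 1314 lower genes, 15 and 11 in the window and 6 and 2 members, and changed no call of a member. Same-numbered libraries correlated at -0.03, 0.06 and 0.02 in their deviations from the group means, and differently numbered ones at -0.08 to 0.07. With 3 libraries per group this cannot decide whether the numbers pair the libraries.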
